A study of Homo sapiens with 24 samples.

Results

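The response of the MOLM-14 line to SAHA and ABT-869 given together was measured against DMSO, the vehicle, on 6 of the 24 arrays of the series, the 3 labelled as MOLM-14 Combination and the 3 labelled as the MOLM-14 control. MOLM-14 is an established human monocytic acute myeloid leukemia line that carries a FLT3 allele with an internal tandem duplication (FLT3-ITD) beside a wild-type allele, a genotype shared by all groups of the line. Cells grew in RPMI1640 with fetal bovine serum and were treated for 24 h, with ABT-869 at 3 nM and SAHA at 6 µM where each was given alone. The methods do not say which doses were used together. The MOLM-14 DMSO, ABT-869, SAHA and Combination groups held 3 arrays each, from biological triplicates, and the same 4 groups were made in MV4-11, a second FLT3-ITD line without a wild-type allele. Every value comes from cultures of established lines, so the spread is that between cultures of a line and not between patients.

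FLT3 is a receptor tyrosine kinase of blood progenitors, and its tandem duplication keeps STAT5, ERK and PI3K signalling on without ligand. ABT-869 blocks FLT3 together with the VEGF and PDGF receptor families, and SAHA (vorinostat) blocks histone deacetylases, the enzymes that remove acetyl groups from histones and other proteins. Entry into S phase depends on cyclin E and CDC25A, which relieve the retinoblastoma block on E2F factors, and E2F then drives the genes that license origins and copy DNA.

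Affymetrix U133 Plus 2.0 arrays gave 1 linear signal per probe set, and the 2% trimmed mean was between 500.06 and 500.07 on these arrays. Signals below 32 made up 29.5 to 33.3% of each array and were raised to 32 before log2 was taken, so folds of dim genes are understated. The median signal lay between 69.2 and 80.6, the 3' to 5' ratio of GAPDH probe sets, a sign of RNA integrity, between 0.923 and 1.02, and the correlation of log2 signals within a group between 0.974 and 0.984. Combination replicate 1 deviated most from its group (SD 0.31) and DMSO replicate 3 next (SD 0.293). Of the 11 measured markers of myeloid leukemia cells, 10 were above the floor on all 6 arrays, among them PTPRC, SPI1 and FLT3, and no marker of T cells, B cells, erythroid cells, megakaryocytes or stroma passed the test. The summed signal of the 5 T cell markers was 253.7 to 296 with DMSO and 169.9 to 282.4 with the Combination, and CD8A, CD3G and KRT19 were at or near the floor. Other sums were higher, 841.5 to 950.3 with DMSO for the B cell markers and 338.5 to 728.4 for the stromal markers. PAX5 (mean 635.3 with DMSO), COL1A1 (378.7), CD79A (198.4) and HBB (158.2) were above the floor on all 6 arrays, so not all such markers were without signal. In RNA from whole cultures, fewer cells of a type and less RNA per cell cannot be told apart.

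Of 54613 probe sets, 609 (1.12%) were at least 2-fold higher with the Combination than with DMSO at an adjusted p under 0.05, and 398 (0.729%) were at least 2-fold lower, by limma with Benjamini-Hochberg adjustment over all probe sets. Taking the brightest probe set of each of 19775 genes, 1733 genes rose (8.76%) and 1533 fell (7.75%) at an adjusted p under 0.05, and the median change over all genes was 0.00 on the log2 scale. These shares are the background against which each gene list is read. All arrays share the same trimmed mean, so a change of all RNA together would not show in the median over all genes. The 6-array comparison alone, with fewer degrees of freedom, called 322 and 291 probe sets.

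**Figure D1:**
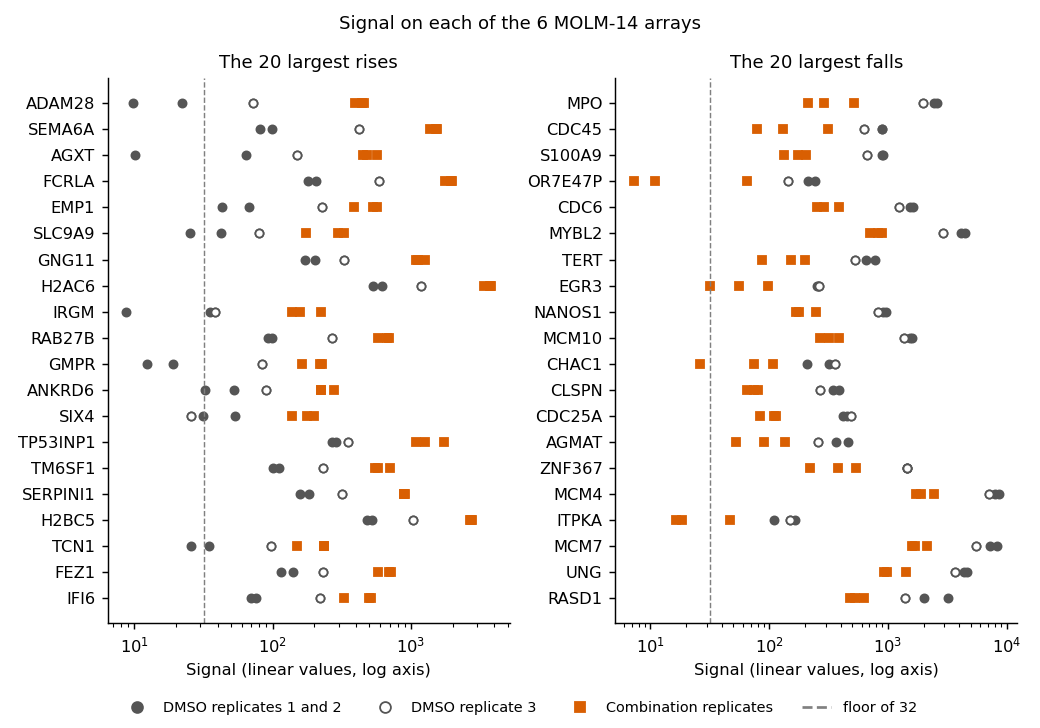
Signals on the 6 MOLM-14 arrays for the 20 genes with the largest rises and the 20 with the largest falls, on a logarithmic axis, with circles for DMSO, open for DMSO replicate 3, orange squares for the Combination and a dashed line at the floor of 32. The genes were chosen among those whose groups do not overlap, so the separation is set by the choice, and the open circle lies nearest to the squares in 34 of the 40 genes.

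The largest falls were led by MPO, S100A9 and genes of origin firing. MPO, the peroxidase of myeloid granules, gave signals of 2431.3, 2606.6 and 1971.1 with DMSO and of 519.6, 291.8 and 210.6 with the Combination, which is 7.31-fold lower (log2 -2.87 ± 0.383 SE, limma adjusted p = 0.00215). The 3 treated arrays were well below all 3 controls, and a further MPO probe set fell by 2.03 on the log2 scale. CDC6, which loads the MCM helicase at origins, gave 1635.9, 1546.3 and 1248.5 with DMSO and 389.1, 290.4 and 253.3 with the Combination, which is 4.8-fold lower (log2 -2.26 ± 0.168, adjusted p = 0.000326). Again the groups lay far apart, with DMSO replicate 3 the lowest control and Combination replicate 1 the highest treated array. The other 18 falls in the 20 ran from -2.43 to -1.93 on the log2 scale. They held CDC45, MCM4 and MCM7 of the replicative helicase, the helicase-activating factor MCM10, the fork mediator CLSPN, the E2F-regulated factors MYBL2 and ZNF367, the phosphatase CDC25A, the uracil glycosylase UNG and TERT, the catalytic subunit of telomerase. Outside the cell cycle they held the calprotectin subunit S100A9, the immediate early factor EGR3, the glutathione-degrading enzyme CHAC1, the RNA-binding protein NANOS1, the agmatinase homolog AGMAT, the inositol kinase ITPKA, the RAS-like protein RASD1 and the pseudogene OR7E47P.

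The largest rises were genes of low or moderate signal in DMSO cells. SEMA6A, a transmembrane semaphorin, gave 99.3, 80.9 and 419.6 with DMSO and 1519.8, 1371.2 and 1545.2 with the Combination, 9.85-fold higher (log2 3.30 ± 0.54, adjusted p = 0.00547). DMSO replicate 3 was about midway between the other controls and the treated arrays on a log scale, and without it the log2 change was 4.04. ADAM28, a membrane metalloprotease of white blood cells, gave 21.9, 9.7 and 72.2 with DMSO and 440.9, 395.6 and 456.3 with the Combination, a log2 change of 3.36 ± 0.325 (adjusted p = 0.000684) that is held down by the floor. FCRLA, an Fc receptor-like protein of B cells, gave 206.2, 181.2 and 581.8 against 1766.7, 1988.5 and 1960.9, 6.82-fold higher (log2 2.77 ± 0.385, adjusted p = 0.00256). All treated arrays of these genes exceeded all controls, as the rule for choosing them required. TP53INP1, a p53-induced autophagy and stress protein, gave 266.3, 284.6 and 351.6 against 1084.5, 1733.7 and 1254.9, 4.46-fold higher (log2 2.16 ± 0.189, adjusted p = 0.000519). The remaining 16 rises ran from 2.06 to 2.88 on the log2 scale. They held AGXT, a peroxisomal aminotransferase, EMP1, an epithelial membrane protein, SLC9A9, an endosomal sodium-proton exchanger, GNG11, a G protein subunit, the histone genes H2AC6 and H2BC5, IRGM, an autophagy GTPase, RAB27B of granule secretion, GMPR of purine conversion, ANKRD6, the homeobox gene SIX4, TM6SF1, the serpin SERPINI1, TCN1, a cobalamin carrier of neutrophil granules, FEZ1 of axonal transport and the interferon-induced IFI6.

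DMSO replicate 3 was the control nearest to the Combination for 34 of these 40 genes (85%), for 672 of the 1007 called probe sets (66.7%) and for 11386 of 27306 probe sets above the median signal (41.7%), and Combination replicate 1 was the treated array nearest to DMSO for 27 of the 40. Without DMSO replicate 3, 790 probe sets were called higher and 463 lower, and the change of CHAC1 no longer passed (-2.02, adjusted p = 0.105). Without Combination replicate 1, EMP1 (2.38, adjusted p = 0.063) and GMPR (2.13, adjusted p = 0.0594) no longer passed. EMP1, SLC9A9, GMPR, TCN1, IFI6 and CHAC1 each lost the call without at least 1 further array, while the other 34 kept it without any single MOLM-14 array. Among the 66 probe sets of these 40 genes with a mean above 100, 27 passed as higher and 33 as lower, none in the direction opposite to its gene's call, and ADAM28, AGXT, CLSPN, FEZ1 and SLC9A9 had a bright probe set that did not pass.

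**Figure D2:**
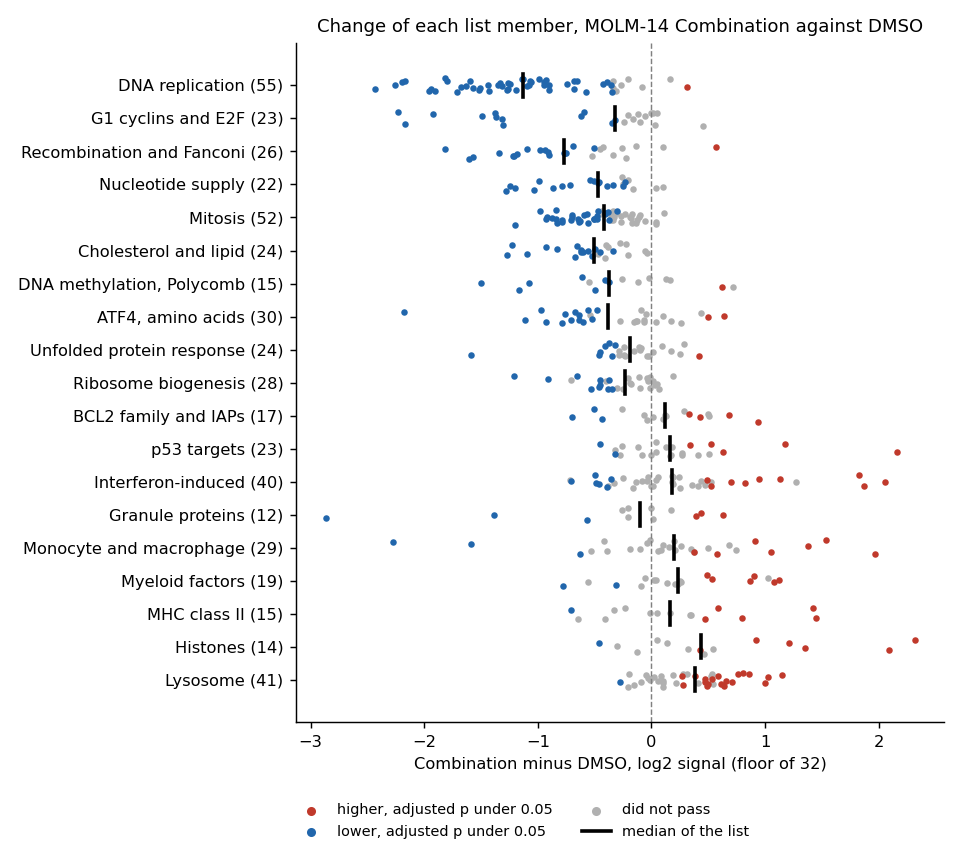
Change of each member of 19 gene lists, MOLM-14 Combination minus DMSO in log2 signal with a floor of 32, with the number measured in brackets, red and blue points for members higher or lower at an adjusted p under 0.05, grey points for members that did not pass and a black bar at the median of the list. DNA replication genes lie furthest to the left, with a median of -1.13, and lysosomal and histone genes to the right, with medians of 0.38 and 0.44.

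DNA replication genes fell almost throughout. Of 55 genes of origin licensing, the replication fork and checkpoint mediation, 47 (85.5%) were lower and 1 was higher, against 7.75 and 8.76% of all genes, and the list median was -1.13. Helicase subunit MCM7 gave 8273.1, 7287.7 and 5475.7 with DMSO and 2141.1, 1688.3 and 1610.4 with the Combination (log2 -1.94 ± 0.178, adjusted p = 0.000579), so the highest treated array lay below the lowest control. All 6 subunits of the MCM2 to MCM7 ring fell, from -1.27 (MCM6) to -1.96 (MCM4), a set chosen after its values were seen. CDC45, the helicase cofactor, gave 895.1, 900.4 and 633.1 against 311.7, 79.7 and 130.8 (-2.43 ± 0.48, adjusted p = 0.0128), with a wide spread among the treated arrays. The exception was ORC4 of the origin recognition complex, at 1136, 1316.1 and 1267.1 against 1469.6, 1551 and 1592.5 (0.31 ± 0.0717, adjusted p = 0.025), a call lost without some single arrays (0.0849 without Combination replicate 3). Array by array, the list median relative to the DMSO mean was -0.97, -1.21 and -1.12 on the Combination arrays and -0.12 to 0.06 on the DMSO arrays. Leaving out both arrays that deviated most gave 44 lower members and a median of -1.26.

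The promoters of replication, mitotic and cholesterol genes were searched on both strands for the letters of known elements, because these lists moved together. Each promoter was the 300 bases around the RefSeq start. The E2F letters TTTCGCGC, TTTGGCGC, TTTCCCGC or TTTGCCGC were present in 19 of the 46 replication promoters found (41.3%), in 8.7% of the 46 mitotic promoters, in 4.36% of the promoters of measured genes and in 3.33% of all 27305 promoters. Those 19 were among the 40 promoters of replication genes that fell. The letters TTTGAA, the core of the cell cycle homology region of late cell cycle genes, were in 32 of 46 mitotic promoters (69.6%), 2.17% of replication promoters and 15.4% of all promoters. Of the 24 promoters of mitotic genes that fell, 18 held them. CCAAT was in 73.9% of cholesterol, 71.7% of mitotic, 54.3% of replication and 35.7% of all promoters. A CCAAT match can share its end bases with the other letters. The SRE letters TCACNCCAC, for SREBP, were in 1 of 23 cholesterol promoters (4.35%) and in 0 of the 12 of members that fell, against 1.15% of all promoters. The E-box letters CACGTG were in 15.2% of replication, 13% of cholesterol, 10.9% of mitotic and 7.43% of all promoters. A match of letters is a description of the sequence and does not show that a factor was bound. The shares describe the lists as chosen and were not tested. Promoters of 4 replication genes that fell (E2F letters) and 2 mitotic genes that fell (TTTGAA letters) are shown, each of which holds a match. They are examples with a match and do not stand for all genes that fell. Among those, 19 of 40 replication promoters held the E2F letters and 18 of 24 mitotic promoters the TTTGAA letters. The sequences run 5′ to 3′ on the strand of the gene, from RefSeq on GRCh38.p14. The E2F letters (either strand) or the TTTGAA letters are in capitals.
CDC6 (chr17:40287629-40287928, plus strand): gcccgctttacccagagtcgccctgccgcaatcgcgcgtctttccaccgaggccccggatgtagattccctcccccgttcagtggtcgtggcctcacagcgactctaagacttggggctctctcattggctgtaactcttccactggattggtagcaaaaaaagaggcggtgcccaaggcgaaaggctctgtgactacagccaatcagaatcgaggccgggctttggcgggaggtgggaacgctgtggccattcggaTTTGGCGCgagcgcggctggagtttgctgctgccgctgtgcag
CLSPN (chr1:35769929-35770228, minus strand): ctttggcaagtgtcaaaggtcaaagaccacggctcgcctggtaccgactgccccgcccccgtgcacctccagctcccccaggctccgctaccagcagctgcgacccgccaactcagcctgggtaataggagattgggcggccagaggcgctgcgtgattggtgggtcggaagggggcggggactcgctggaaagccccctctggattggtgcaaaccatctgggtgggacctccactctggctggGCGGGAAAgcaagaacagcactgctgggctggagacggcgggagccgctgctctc
MCM7 (chr7:100101348-100101647, minus strand): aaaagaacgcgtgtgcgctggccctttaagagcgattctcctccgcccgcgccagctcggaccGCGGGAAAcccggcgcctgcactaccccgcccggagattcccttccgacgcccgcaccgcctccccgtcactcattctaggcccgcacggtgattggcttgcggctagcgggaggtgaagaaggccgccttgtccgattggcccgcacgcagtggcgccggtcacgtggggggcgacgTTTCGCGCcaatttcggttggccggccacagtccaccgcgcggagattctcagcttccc
GINS2 (chr16:85688905-85689204, minus strand): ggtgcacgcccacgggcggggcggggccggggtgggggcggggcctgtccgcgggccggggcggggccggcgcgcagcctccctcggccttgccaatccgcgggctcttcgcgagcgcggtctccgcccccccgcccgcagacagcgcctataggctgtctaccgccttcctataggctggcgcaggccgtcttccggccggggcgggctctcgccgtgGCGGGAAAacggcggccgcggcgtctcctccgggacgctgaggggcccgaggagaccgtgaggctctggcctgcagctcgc
SPC25 (chr2:168890381-168890680, minus strand): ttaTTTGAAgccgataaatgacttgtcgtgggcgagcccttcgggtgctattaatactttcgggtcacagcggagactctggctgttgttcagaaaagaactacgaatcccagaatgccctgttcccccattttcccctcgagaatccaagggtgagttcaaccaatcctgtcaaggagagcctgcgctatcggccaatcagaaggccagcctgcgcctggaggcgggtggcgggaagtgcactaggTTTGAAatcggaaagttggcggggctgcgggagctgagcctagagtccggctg
MAD2L1 (chr4:120066799-120067098, minus strand): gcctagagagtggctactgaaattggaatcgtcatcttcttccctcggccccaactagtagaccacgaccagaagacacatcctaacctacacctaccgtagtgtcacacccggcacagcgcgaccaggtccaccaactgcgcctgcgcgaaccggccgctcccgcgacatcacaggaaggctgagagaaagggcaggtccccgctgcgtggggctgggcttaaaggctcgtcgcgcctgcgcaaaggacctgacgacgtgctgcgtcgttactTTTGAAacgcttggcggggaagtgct

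The E2F letters of CDC6, CLSPN and GINS2 lay at bases 258 to 265, 246 to 253 and 220 to 227 of the 300, near the start site at base 251, and MCM7 held a match at 242 to 249 and a further 1 upstream at 64 to 71. CLSPN, which carries the checkpoint signal to CHEK1, gave 387.1, 343 and 270 with DMSO and 74.8, 65.6 and 79.8 with the Combination (-2.17 ± 0.307, adjusted p = 0.00277). GINS2, a subunit of the active helicase, gave 1782.7, 1873.6 and 1516.9 against 694.7, 491.1 and 340.1 (-1.82 ± 0.255, adjusted p = 0.00268). The treated arrays of both lay below all controls.

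Upstream of replication, 12 of 23 G1 genes were lower (52.2%) and none was higher, with a median of -0.32. CCNE2, a cyclin E that activates CDK2, gave 2246.8, 2177.2 and 1898.4 with DMSO and 752.8, 441.3 and 516.6 with the Combination (-1.92 ± 0.181, adjusted p = 0.000627). MYBL2, an E2F-induced MYB factor, gave 4452.2, 4144.8 and 2923 against 888.9, 822.6 and 713.3 (-2.23 ± 0.22, adjusted p = 0.000708). Both were separated on all arrays. CCNE1 (-1.49, adjusted p = 0.00296) and E2F1 (-1.32, adjusted p = 0.00158) also fell. A further E2F1 probe set did not pass (-1.52, limma adjusted p = 0.06), with Combination signals spread over 218.1, 81.8 and 53.1. Among the 6 CDK inhibitors measured, CDKN1A, which encodes p21, rose from 5416.6, 5455.9 and 5599.8 to 8381.9, 7649 and 7597.4, 1.43-fold (0.52 ± 0.0674, adjusted p = 0.00193). CDKN2D, an inhibitor of CDK4 and CDK6, rose by 0.77 (adjusted p = 0.0163), a call lost without Combination replicate 2 (adjusted p = 0.0577).

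Nucleotide supply and repair genes were lower too. Of 22 nucleotide supply enzymes 16 fell (72.7%), with a median of -0.47, and none rose, and 10 passed at a floor of 1. RRM2, the S phase subunit of ribonucleotide reductase, gave 12402.9, 13405.1 and 10908.8 against 6570.2, 4095.1 and 4754.1 (-1.28 ± 0.168, adjusted p = 0.00207), and CTPS1 (-1.25), thymidylate synthase TYMS (-1.20) and CAD of pyrimidine synthesis (-1.03) followed. Of 26 recombination and Fanconi genes 17 fell (65.4%) and 1 rose, with a median of -0.77. RAD54L, a motor protein of strand exchange, gave 1151.4, 838 and 761.8 against 252.2, 295.1 and 223 (-1.82 ± 0.157, adjusted p = 0.000497), the exonuclease EXO1 fell by 1.61 and the helicase BRIP1 fell by 1.57. The Fanconi core member FANCF went the other way, from 877.4, 985.6 and 1004.4 to 1431.5, 1420.8 and 1404.2 (0.57 ± 0.0518, adjusted p = 0.000562). These groups did not overlap for any of the named genes, which describes the arrays and is not evidence beyond the limma test. Of 11 DNA damage checkpoint genes 3 fell (27.3%) and none rose, with a median of -0.35. They were the kinase CHEK1 (-1.75, adjusted p = 0.000671), the CDK1-inhibiting kinase PKMYT1 (-1.37, adjusted p = 0.000812) and the clamp subunit RAD1 (-0.73, adjusted p = 0.0023). Of the 5 APOBEC3 genes measured 1 fell, the cytidine deaminase APOBEC3B (-0.96, adjusted p = 0.000883).

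Of 52 mitotic genes, 29 were lower (55.8%) and none higher, with a median of -0.42, and 1 reached 2-fold against 32 of the 55 replication genes. It was NCAPH, a condensin subunit, at 1528.6, 1340.1 and 1053.6 with DMSO and 590.8, 572 and 529.8 with the Combination (-1.20 ± 0.153, adjusted p = 0.00178). SPC25 of the kinetochore gave 1318, 1315.2 and 1192.9 against 692, 583.5 and 663.9 (-0.98 ± 0.11, adjusted p = 0.00108), and the spindle checkpoint protein MAD2L1 gave 8659.8, 8016 and 9398.9 against 4454.6, 4277.2 and 4952 (-0.93 ± 0.0742, adjusted p = 0.000407). Both were lower on every treated array than on any control. The difference between the replication and mitotic lists was not tested.

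DNA methylation and Polycomb genes, whose products keep chromatin marks through cell division, were lower in 7 of 15 (46.7%) and higher in 1 of 15 (6.67%). Their median was -0.37. UHRF1, which brings DNMT1 to hemimethylated DNA, gave 10623.6, 11179.4 and 9874 against 4372.5, 3442 and 3426.9 (-1.50 ± 0.123, adjusted p = 0.000427). The maintenance methyltransferase DNMT1 fell by 1.17 (adjusted p = 0.000299) and the Polycomb methyltransferase EZH2 by 1.08 (adjusted p = 0.000338), both with separated groups. JARID2, a Polycomb cofactor, gave 6983, 7398.4 and 7407.1 against 9502.7, 12548.9 and 11560.7 (0.62 ± 0.1, adjusted p = 0.00533).

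Cholesterol synthesis genes and other SREBP targets fell in 15 of 24 measured (62.5%), with none higher and a median of -0.51. MVK, mevalonate kinase, gave 1537.9, 1646.1 and 1635 with DMSO and 878.3, 911.4 and 922.8 with the Combination, 1.78-fold lower (-0.83 ± 0.0426, adjusted p = 0.000128). FASN, fatty acid synthase, gave 4434.8, 3988 and 3215.6 against 1578.3, 1748.3 and 1475.2 (-1.27 ± 0.15, adjusted p = 0.00132). Every treated array was below every control for both genes. On the Combination arrays the list median was -0.49, -0.53 and -0.54 relative to the DMSO mean, and on the DMSO arrays -0.08 to 0.04.

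Amino acid, ribosome and chaperone genes moved in part. Of 30 ATF4 and amino acid response genes 14 fell (46.7%) and 2 rose (6.67%), with a median of -0.38. The total of 16 was 10 in the 6-array comparison alone. CBS, cystathionine beta-synthase, gave 1458.1, 1233.4 and 1191.2 against 593.6, 636.1 and 565 (-1.11 ± 0.0921, adjusted p = 0.000439), and the transcription factor ATF5 fell by 0.97 (adjusted p = 0.00979). The tryptophan tRNA synthetase WARS1 was the opposite, at 2361.2, 2231.5 and 2281 against 3688.1, 3396.8 and 3634 (0.64 ± 0.0615, adjusted p = 0.000674). Of 28 nucleolar ribosome biogenesis genes 10 fell (35.7%), with a median of -0.23, led by UTP20 of the small subunit processome (-1.21, adjusted p = 0.00207). This count was 6 without DMSO replicate 2 or Combination replicate 3. Of 24 unfolded protein response genes 7 fell (29.2%) and 1 rose (4.17%), against 7.75 and 8.76% of all genes, with a median of -0.19. Of 18 heat shock chaperones 3 fell (16.7%) and 1 rose (5.56%). The rise was in HSPA6, an inducible HSP70, from 1014.5, 830.3 and 1163.6 to 2686, 2648.4 and 2115.5 (1.31 ± 0.165, adjusted p = 0.00167). The heat shock total of 4 was 2 without DMSO replicate 2, Combination replicate 2 or Combination replicate 3.

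Single genes downstream of FLT3 changed in both directions. FLT3 itself gave 10510.6, 11198.7 and 10740 with DMSO and 12732.2, 13031.7 and 12672.8 with the Combination (0.24 ± 0.033, adjusted p = 0.00223), a small rise on every treated array. Of the 9 receptors that ABT-869 inhibits, FLT4, a VEGF receptor, was the only one lower (11.1% of the list, log2 -1.62, adjusted p = 0.00215). Of 14 STAT5 targets 1 fell and 1 rose (7.14% each), near the 7.75 and 8.76% of all genes, with a median of 0.04. CISH, a SOCS family feedback inhibitor, gave 2687, 2518.1 and 2414.5 against 1475.1, 1535.8 and 1528.9 (-0.75 ± 0.108, adjusted p = 0.00313). The kinase PIM1 gave 1748.9, 1573.5 and 2317.6 against 2894.5, 3449.5 and 2739.2 (0.70 ± 0.146, adjusted p = 0.0163), a call lost without DMSO replicate 1 (0.0608), DMSO replicate 2 or Combination replicate 2. CISH was lower and PIM1 higher on all treated arrays than on any control.

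ERK feedback and immediate early genes split the same way, with 6 of 19 higher (31.6%), 2 lower (10.5%) and a median of 0.03. EGR1, an immediate early zinc finger factor, gave 977.7, 856.7 and 660.6 with DMSO and 377.2, 241.5 and 278.7 with the Combination (-1.48 ± 0.193, adjusted p = 0.00195), and EGR3 fell by 2.21. DUSP6, the ERK phosphatase, gave 2330.1, 2251.9 and 3118.4 against 6798, 5020.8 and 6680.7 (1.27 ± 0.156, adjusted p = 0.00154), and PHLDA1 rose by 1.32 (adjusted p = 0.00249). The EGR genes and DUSP6 lay on opposite sides of DMSO on every treated array. MYC did not pass (0.14, adjusted p = 0.32). In the MYC, MYB and MAX network of 11 genes 3 rose (27.3%), led by MAX (0.59) and MXD1 (0.55), none fell, and the median was 0.13.

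Cell death genes moved in both directions. Of 17 BCL2 family and IAP genes 4 rose (23.5%) and 3 fell (17.6%), against 8.76 and 7.75% of all genes, with a median of 0.12. The total was 4 without DMSO replicate 1, Combination replicate 2 or Combination replicate 3. BCL2L11, which encodes the pro-apoptotic BIM, gave 1569, 1620.5 and 1988.8 against 2471, 2931.1 and 2882.8 (0.68 ± 0.103, adjusted p = 0.00383). The anti-apoptotic BCL2A1 gave 347.7, 236 and 394.4 against 652.2, 566.2 and 615.6 (0.94 ± 0.179, adjusted p = 0.0111). PMAIP1, which encodes the pro-apoptotic NOXA, fell by 0.70 (adjusted p = 0.00357) and the caspase inhibitor XIAP by 0.51 (adjusted p = 0.0111). MCL1 (0.12, adjusted p = 0.0567) and BCL2 (-0.04, adjusted p = 0.798) did not pass, and MCL1 passed under quantile normalization (0.15). Of 14 caspase and death receptor genes 3 rose (21.4%), CFLAR (0.77), the death ligand TNFSF10 (0.74) and TRADD (0.72). CYCS alone fell (7.14% of the list), by 0.35, and the list median was 0.20. Of 23 p53 targets 5 rose (21.7%) and 2 fell (8.7%), with a median of 0.16. Beside TP53INP1 the zinc finger gene ZMAT3 rose by 1.18 (adjusted p = 0.000929). That list held 3 changed genes without Combination replicate 3 and 4 without Combination replicate 2 or DMSO replicate 1.

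Some histone genes and class II antigen presentation genes rose. Of 14 histone genes with a probe set of their own 6 rose (42.9%) and 1 fell, with a median of 0.44. H2AC6 gave 616.5, 527.4 and 1179.5 with DMSO and 3814.1, 3354.4 and 3747.3 with the Combination, 5-fold higher (2.32 ± 0.316, adjusted p = 0.00231). H2BC5, H1-2 and H2BC12 rose by 2.09, 1.35 and 1.21, each with all treated arrays above all controls. The variant histone H2AZ1 was the one that fell (-0.46, adjusted p = 0.0302, and 0.103 without DMSO replicate 2). Genes of one histone family share sequence, so their probe sets may read close relatives. Of 15 MHC class II genes and activators 5 rose (33.3%) and 1 fell (6.67%), against 8.76 and 7.75% of all genes, with a median of 0.16. The peptide-loading chain HLA-DMA gave 393.7, 424.2 and 699 against 1129.4, 1463.1 and 1442.9 (1.45 ± 0.241, adjusted p = 0.00587), its partner HLA-DMB rose by 1.42 (adjusted p = 0.00168), and the activator subunit RFXAP fell by 0.71 (adjusted p = 0.00614). The master activator CIITA was at 82.4 ± 8.29 against 104.9 ± 4.11 (SD, n = 3 each) and did not pass (adjusted p = 0.0888 by limma).

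Myeloid genes moved in both directions. Among 12 granule proteins 3 fell and 3 rose (25% each), against 7.75 and 8.76% of all genes, with a median of -0.10. Beside MPO, PRTN3, proteinase 3, fell from 8413.9, 7972.1 and 5495.5 to 3074.7, 2666.2 and 2489.4 (-1.39 ± 0.188, adjusted p = 0.00226), while cathepsin G, CTSG, rose from 9568.1, 10424.3 and 10588 to 15437, 16396.6 and 15571.8 (0.63 ± 0.0647, adjusted p = 0.000788). All treated arrays were on 1 side of the controls for both. Among 29 monocyte and macrophage genes 7 rose (24.1%) and 3 fell (10.3%), with a median of 0.20. The total was 4 in the 6-array comparison alone. The calprotectin subunit S100A8 fell from 4412.8, 4442.7 and 3112.4 to 1541.2, 1086 and 1337.4 (-1.59 ± 0.227, adjusted p = 0.00292), beside S100A9. The costimulatory ligand CD86 rose from 270.2, 226.3 and 529.1 to 1124.7, 1197.7 and 1438 (1.97 ± 0.308, adjusted p = 0.00446), the scavenger receptor CD36 rose by 1.38 (adjusted p = 0.00869), the Fc receptor FCGR2A by 1.05 (adjusted p = 0.00151) and TREM1 by 1.54 (adjusted p = 0.0303, and 0.101 without Combination replicate 3). Of 19 myeloid transcription factors 6 rose (31.6%) and 2 fell (10.5%), with a median of 0.23. KLF4, a monocyte factor, gave 619.6, 577.6 and 929.6 against 1378.9, 1433.7 and 1598.9 (1.08 ± 0.176, adjusted p = 0.00528), and IRF8, which directs monocyte fate, gave 10907.6, 11973.7 and 9989.4 against 6605.2, 5967.1 and 6473.8 (-0.78 ± 0.0716, adjusted p = 0.000574). SPI1, which encodes PU.1, did not pass (-0.06).

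Lysosomal genes rose in 19 of 41 (46.3%) and fell in 1, against 8.76 and 7.75% of all genes, with a median of 0.38. PSAP, the precursor of the saposins that help break down sphingolipids, gave 4483.2, 4617.1 and 6059.1 with DMSO and 12426.2, 10920 and 10035.9 with the Combination, 2.21-fold higher (1.15 ± 0.13, adjusted p = 0.00112). SCARB2, a lysosomal membrane receptor, gave 737, 665 and 704.5 against 1233.9, 1281.4 and 1296.8 (0.86 ± 0.115, adjusted p = 0.00221). Neither gene overlapped between groups. SGSH, a heparan sulfatase, rose by 1.03 (adjusted p = 0.0248, and 0.0751 without Combination replicate 1), and GUSB, beta-glucuronidase, fell by 0.28 (adjusted p = 0.0101). In the 6-array comparison alone 11 members rose and none fell.

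Interferon-induced genes were mixed and their calls weak. Of 40, 9 rose (22.5%) and 6 fell (15%), with a median of 0.18, and the 15 calls became 3 without DMSO replicate 2, 5 without Combination replicate 3 and 9 without DMSO replicate 1, Combination replicate 1 or Combination replicate 2. IFIT3, an RNA-response protein, gave 119.3, 137.2 and 241.9 with DMSO and 601.3, 547 and 583.4 with the Combination (1.87 ± 0.243, adjusted p = 0.00193) and kept its call without any single array. IFIT1 gave 129.4, 96.9 and 198.9 against 463.2, 502.3 and 485.5 (1.83 ± 0.387, adjusted p = 0.0174, and 0.0644 without DMSO replicate 2). All treated arrays were above all controls for both. XAF1, a partner of XIAP, fell by 0.49 (adjusted p = 0.00249). Of the 4 PYHIN genes, which encode DNA-binding proteins, 3 rose, with a list median of 1.54. MNDA gave 465.2, 454 and 755.5 against 1760.4, 1961.8 and 2011.7 (1.81 ± 0.177, adjusted p = 0.000696), and IFI16 gave 742.2, 611.6 and 1426.4 against 2741.3, 2824.7 and 3043.6 (1.73 ± 0.264, adjusted p = 0.00394). AIM2 rose by 1.35 (adjusted p = 0.0207, and 0.0727 without Combination replicate 2), and PYHIN1, at 55.3 ± 34.8 with DMSO (SD, n = 3), did not pass.

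The remaining lists are read against 8.76% of all genes higher and 7.75% lower. Of 11 histone deacetylase genes HDAC1 (0.20, adjusted p = 0.0111) and HDAC8 (0.55, adjusted p = 0.0168) rose (18.2%). HDAC6 fell by 0.42 (adjusted p = 0.0357, 9.09% of the list), the median was 0.03, and without DMSO replicate 2 only HDAC1 passed. Of 10 genes known to respond to HDAC inhibitors 4 rose (40%) and 1 fell (10%), with a median of 0.46. The rises were led by SYT11 (1.37), gelsolin GSN (0.68) and TXNIP (0.65). Of 9 RGS genes, which switch off G proteins, 3 rose (33.3%) and 1 fell (11.1%), with RGS2 higher by 1.31 (adjusted p = 0.000767) and a median of -0.16. Of 10 HOXA, MEIS1 and KMT2A fusion targets 3 rose (30%) and 1 fell (10%), with a median of 0.10. Of 18 KRAB zinc finger genes of 19p12, 4 fell (22.2%) and none rose, with a median of -0.29. The falls were led by ZNF85 (-1.32), ZNF100 (-0.96) and ZNF431 (-0.82). Glycolysis and hypoxia genes held 1 rise (3.45%) and 5 falls (17.2%) in 29 (median -0.04), a total of 3 without Combination replicate 2. Of 8 metallothionein genes 1 fell (12.5%) and none rose (median -0.00).

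Of the 23 probe sets of the study's core signature, which the authors chose on these same samples, 16 were lower and 6 higher at an adjusted p under 0.05, so they are not independent evidence. The paper kept genes that changed at least 2-fold only with the combination, in both lines, whereas the values here are against DMSO. The 1 that did not pass is unnamed (1.06, adjusted p = 0.0541). ORC1, the largest subunit of the origin recognition complex, gave 1539.6, 1537.5 and 1411.8 with DMSO and 598.8, 514.9 and 543.5 with the Combination (-1.44 ± 0.128, adjusted p = 0.000555). PTP4A3, the phosphatase PRL-3, gave 975.8, 1043 and 869.8 against 669.6, 393.4 and 346.2 (-1.09 ± 0.208, adjusted p = 0.011), and a brighter PTP4A3 probe set fell by 0.84 (adjusted p = 0.00284). The core PTP4A3 probe set did not pass against ABT-869 (-0.57, limma adjusted p = 0.127) or SAHA (-1.05, adjusted p = 0.105). The brighter one passed against SAHA (-0.81, adjusted p = 0.039) and not against ABT-869 (-0.33, adjusted p = 0.12). The desmosomal cadherin DSC2 (-1.24), the proteoglycan CSPG4 (-1.18) and PABIR2, a regulator of protein phosphatase PP2A (-1.40), also fell, and FRY of cell polarity (1.18), LMO4 (1.12) and ACADSB of branched-chain acid breakdown (1.26) rose. The core probe set of METTL21A, a protein lysine methyltransferase, fell by 1.26, and the brightest METTL21A probe set fell by 0.40 (adjusted p = 0.043). With SAHA alone the change from DMSO was -1.37 for PABIR2, -1.22 for DSC2 and -1.14 for ORC1, but -0.04 for PTP4A3 and -0.14 for HMGCS1. Against SAHA, the core probe sets of ACAT2 (-0.74), CBS (-0.58) and HMGCS1 (-1.09) passed and the others did not.

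The change with both drugs was then set beside each drug alone, using the same 3 Combination arrays, so these comparisons share arrays. Against ABT-869, 2058 genes were higher (10.4%) and 1906 lower (9.64%), and 902 probe sets were at least 2-fold higher (1.65%) and 467 lower (0.855%). The 5 largest rises were SEMA6A (4.03), ADAM28 (3.33), AGXT (3.02), GNG11 (2.78) and FEZ1 (2.78), and the 5 largest falls MPO (-3.03), CDC45 (-2.50), AGMAT (-2.49), TERT (-2.43) and CLSPN (-2.41). Of the 55 replication genes 49 were lower than with ABT-869, of the 52 mitotic genes 36, and of the 41 lysosomal genes 21 were higher. Between ABT-869 and DMSO few genes passed at all, 38 higher (0.192%) and 50 lower (0.253%), and none was a replication gene.

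Against SAHA far fewer differed. Of the 19775 genes 18 were higher (0.091%) and 80 lower (0.405%), and at 2-fold 17 probe sets were higher (0.0311%) and 18 lower (0.033%), with 8 in all at a floor of 1. The total of 35 was 15, 6 and 17 without SAHA replicate 1, 2 or 3, and 22 and 23 without ABT-869 replicate 2 or 3. No replication or mitotic gene passed, with medians of -0.22 and -0.01, and a p above the threshold does not show that the levels were equal. CDC6 was at 541 ± 75.3 with SAHA and 310.9 ± 70.2 with the Combination (SD, n = 3 each), a log2 difference of -0.81 ± 0.168 (limma adjusted p = 0.117). Of the cholesterol synthesis genes 11 of 24 were lower (45.8%) against 0.405% of all genes, with a median of -0.63. Glycolysis and hypoxia genes held 3 lower of 29 (10.3%), STAT5 targets 2 of 14 (14.3%) and RGS genes 1 of 9 (11.1%), and 5 further lists held 1 each. Squalene epoxidase, SQLE, gave 7943.2, 7705.3 and 7814 with DMSO, 5280.1, 5666.1 and 5526 with ABT-869, 8808, 10355.2 and 9370.7 with SAHA, and 5633.3, 5566.4 and 5368.6 with the Combination. The Combination arrays lay among those of ABT-869 and far below those of SAHA (-0.78 ± 0.0541, adjusted p = 0.00351). MVK gave 1240.1, 1163.5 and 1288.7 with ABT-869, 1397.9, 1449.1 and 1466.1 with SAHA and 878.3, 911.4 and 922.8 with the Combination, a log2 difference of -0.67 ± 0.0426 from SAHA (adjusted p = 0.00346) and of -0.44 from ABT-869 (adjusted p = 0.000428). DHCR7, the last enzyme of cholesterol synthesis (-0.97, adjusted p = 0.00413), ACLY, which makes cytosolic acetyl-CoA (-0.49, adjusted p = 0.0091), SC5D, SQLE and MVK kept the call without any single array, while the 6 others, among them HMGCS1 (-1.09, adjusted p = 0.0491, and 0.161 without SAHA replicate 2), did not.

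**Figure D3:**
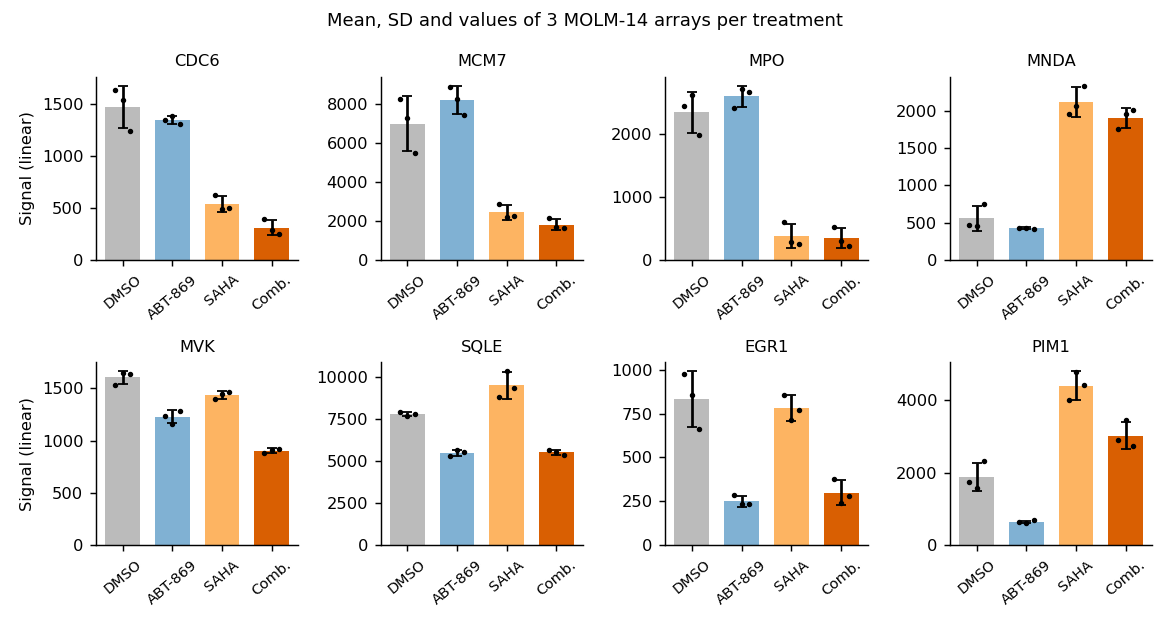
Mean signal of 8 genes with DMSO, ABT-869, SAHA and the Combination (Comb.) in MOLM-14, on linear axes from 0, with error bars for the SD of 3 arrays and points for the arrays. CDC6, MCM7, MPO and MNDA with the Combination lie nearer to SAHA than to DMSO, SQLE and EGR1 near ABT-869, MVK below both drugs, and PIM1 between SAHA and DMSO.

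Outside the cholesterol list, EGR1, SOCS1, CISH and STON1 were among the genes lower than with SAHA. EGR1 gave 286.5, 233.1 and 231.9 with ABT-869 and 858.5, 710.6 and 772.9 with SAHA, against 377.2, 241.5 and 278.7 with the Combination (-1.41 ± 0.193 from SAHA, adjusted p = 0.0306, and 0.108 without SAHA replicate 1). SOCS1, a cytokine feedback inhibitor, gave 1814, 2383 and 2024.2 with SAHA and 921.8, 833.8 and 900.6 with the Combination (-1.22 ± 0.145, adjusted p = 0.0201, and 0.0729 without SAHA replicate 2). A further SOCS1 probe set was lower than with SAHA by 1.22 too. With DMSO SOCS1 gave 949.2, 1289.5 and 1059.9, and the Combination did not pass against DMSO (-0.30, limma adjusted p = 0.284). The log2 difference was -0.92 for CISH (adjusted p = 0.0189, and 0.075 without SAHA replicate 3) and -1.11 for the endocytic adaptor STON1 (0.0812 without SAHA replicate 2). STON1 had means of 312.3 with DMSO, 668.3 with SAHA and 309 with the Combination, and did not pass against DMSO (-0.01). Among genes read from their brightest probe set with a mean of at least 100 in either group, the 5 largest rises over SAHA were SCART1 (1.66), TMEM45B (1.41), the hedgehog ligand SHH (1.03), the homeobox gene DLX5 (0.59) and the integrin chain ITGA4 (0.47), and each lost its call without some single array. SCART1 rested on means of 25.73 with SAHA and 103 with the Combination, near the floor. Against DMSO, SCART1 (0.44), SHH (0.11) and ITGA4 (0.03) did not pass. TMEM45B (0.86, limma adjusted p = 0.0151) and DLX5 (0.63, adjusted p = 0.00334) were higher than with DMSO. PIM1 was at 642.7 ± 33.8 with ABT-869, 4410 ± 398 with SAHA and 3028 ± 373 with the Combination (SD, n = 3 each), and its difference from SAHA did not pass (-0.55, limma adjusted p = 0.228).

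The Combination was also compared with the sum of the single-drug changes. By limma, 4 probe sets exceeded that sum by at least 2-fold (0.00732%) and 0 fell short of it by that much (0%), while 4424 had an unadjusted p under 0.05. Without the fold limit 5 exceeded it (0.00916%) and 9 fell short of it (0.0165%), among them BID, a pro-apoptotic BCL2 family member (-0.37, adjusted p = 0.034), and TOR1A, a chaperone-like ATPase (-0.31, adjusted p = 0.034), at means of 2072 and 1096 with the Combination. The 4 were ZSCAN30 (2.62, adjusted p = 0.0437), VWA3B (1.21, adjusted p = 0.0469), HLA-DOA (1.10, adjusted p = 0.034) and an unnamed probe set (1.25, adjusted p = 0.0275). Those 4 had means under 100 in every group, and HLA-DOA was under the floor on every array of the other 3 groups, with 68.77 ± 8.75 (SD, n = 3) with the Combination. The means of ZSCAN30 were 83.93 with DMSO, 17.8 with ABT-869, 34.5 with SAHA and 83.87 with the Combination. In the same order VWA3B gave 41.57, 17.9, 12.4 and 57.9, and the unnamed probe set 49.9, 24.57, 22 and 52.43. Apart from HLA-DOA, they were thus lower with each drug alone than with DMSO or the Combination. The count was 0 without SAHA replicate 2, 2 without SAHA replicate 1, 6 without SAHA replicate 3 and between 9 and 17 without any single array of the other groups. No gene of the replication, mitotic or cholesterol lists passed, and their median departures were -0.34, -0.05 and -0.26.

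**Figure D4:**
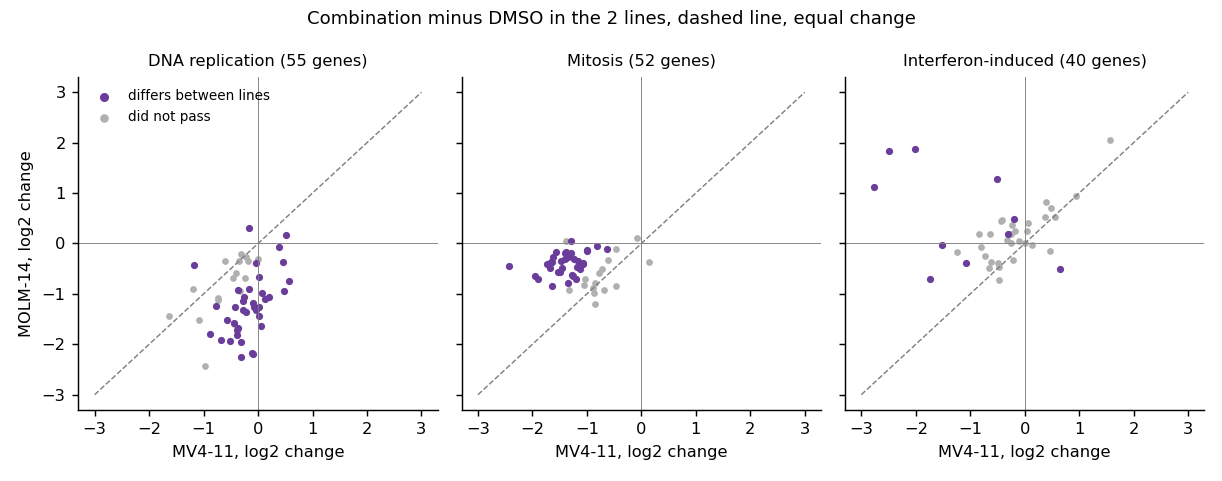
Log2 change with the Combination in MV4-11 (horizontal axis) and MOLM-14 (vertical axis) for the genes of 3 lists, with a dashed line of equal change and purple points where the difference between lines passed an adjusted p of 0.05. Most replication genes lie below the dashed line, most mitotic genes above it, and IFIT1, IFIT2 and IFIT3 stand at the upper left.

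The same treatment was compared between the lines in a fit over all 24 arrays. The change differed for 1417 genes in the direction of MOLM-14 (7.17%) and for 1637 in the direction of MV4-11 (8.28%), and at 2-fold for 847 (1.55%) and 707 (1.29%) probe sets. Of the 55 replication genes the difference, MOLM-14 minus MV4-11, was negative for 36 and positive for 2, with a median of -0.87. MCM10 gave 917.2, 827.8 and 828.1 with DMSO and 775.5, 809.4 and 807.2 with the Combination in MV4-11, against 1582.6, 1528.5 and 1358.3 with DMSO and 390, 270.6 and 321.7 with the Combination in MOLM-14 (difference -2.10 ± 0.207, adjusted p = 6.05e-06). MCM10 was close to its control in MV4-11 and well separated in MOLM-14. CCNE2 moved in opposite directions, 0.76 in MV4-11 and -1.92 in MOLM-14. Of the 52 mitotic genes it was positive for 36 and negative for none, with a median of 0.79. PLK1, a mitotic kinase, fell by 1.66 in MV4-11, from 1594, 1867.3 and 1584.6 to 479.3, 583.9 and 530.9, and by 0.37 in MOLM-14, from 1971.2, 1943.5 and 1671.5 to 1414.1, 1458.9 and 1432.9 (difference 1.29 ± 0.15, adjusted p = 2.69e-05).

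The largest rises in MOLM-14 relative to MV4-11 were led by interferon genes. IFIT1 fell in MV4-11, from 717.9, 915.4 and 589.5 to 99.7, 149 and 144.3, and rose in MOLM-14 (difference 4.33 ± 0.462, adjusted p = 1.17e-05). IFIT3 (3.89) and IFIT2 (3.88) had the same opposite signs, and of the 40 interferon genes 9 differed upward in MOLM-14 and 1 downward. The prolyl hydroxylase P3H2 (3.79) and the chemokine CCL20 (3.72) followed, and the proline-pathway enzyme ALDH4A1 (-3.76), GPRIN1 (-2.77, a call lost without 7 of the 12 arrays), CCNE2 (-2.67), S100A8 (-2.64) and CDC25A (-2.48) stood at the other end. Metallothioneins, which bind zinc and copper, fell in MV4-11 for 7 of 8 genes, where 11.1% of all genes fell and 13.3% rose, and in MOLM-14 for 1 of 8. MT2A gave 25770.3, 22637.4 and 23401.3 with DMSO and 3904.8, 4336.3 and 5774.6 with the Combination in MV4-11, against 7323.5, 7006.8 and 6585.5 and 6733.9, 6643.8 and 7255.1 in MOLM-14 (difference 2.36 ± 0.202, adjusted p = 1.41e-06), and 7 of 8 members differed this way. For 24 of 28 ribosome biogenesis genes the difference was negative, with 18 higher in MV4-11 and 10 lower in MOLM-14, and for 25 of 30 ATF4 genes it was positive, with 28 lower in MV4-11 and 14 in MOLM-14.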

How the data were processed

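RNA from MOLM-14 and MV4-11 cultures was hybridised to Affymetrix U133 Plus 2.0 arrays, and the deposited values are linear signal intensities, 1 per probe set, and share a 2% trimmed mean on all arrays. How the authors scaled them, and their software, were not given in the sources used here. Signals below the floor of 32, 32.2% on the 12 MOLM-14 arrays, were raised to it and log2 was taken.

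limma 3.58.1 in R 4.3.3 was fitted to the 12 MOLM-14 arrays in 4 groups (8 residual degrees of freedom) for 54613 probe sets without the 62 control probe sets, and to all 24 arrays for the difference between lines, with Benjamini-Hochberg adjustment over all probe sets. The procedure was tested on simulated data with independent normal errors and changes only in probe sets above the median signal. That simulation does not cover changes of dim genes or arrays that deviate from their group. Of the tested probe sets, 41091 named 1 gene, and each of 19775 genes was read from its brightest such probe set. Errors after ± are standard errors of the log2 difference unless given as SD. With 3 arrays a group the precision is limited by their number, and the smallest p of an exact permutation test is 0.1. Separation of treated and control arrays is given for single genes as a description, and its share over all genes was not counted.

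The genes and the 36 gene lists were chosen with earlier results of these data known. Named genes were the 20 largest rises and falls with separated groups and a higher mean of at least 100, up to 4 leading rises and falls of each list, a fixed set of genes such as FLT3, PIM1, MPO and the HDAC genes, the study's core probe sets, and the 5 leading genes in each direction of the other comparisons. GINS2, the MCM ring subunits outside the rule, MVK, SQLE, DHCR7, ACLY, SC5D, SPI1, CIITA, PYHIN1, PLK1, MT2A, BID, TOR1A and the other genes departing from additivity were chosen after their values were seen. Alternatives were other floors, normalizations and fits, a replicate block, leaving out arrays and other thresholds. Columns of all 24 samples were matched to their labels, and no array pair held identical values.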

Additional observations from a re-analysis of the deposited data

Results flagged for a closer look

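Of 65 named genes compared between the lines, 36 differed in their response to the Combination by the test of the difference in the 24-array fit. Over all genes 7.17% differed upward and 8.28% downward. Of the 36, 24 were among the 40 largest changes in MOLM-14. Those were chosen on the same MOLM-14 arrays, which favours a difference between lines. In 10 the signs were opposite, though some MV4-11 changes did not pass, such as EMP1 (-0.18, limma adjusted p = 0.923) and CDC25A (0.31, adjusted p = 0.487). All values are log2 changes in MOLM-14 minus those in MV4-11.

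Among genes that rose in MOLM-14, the difference was 3.17 for TM6SF1, 2.67 for EMP1, 2.37 for SERPINI1, 2.28 for FCRLA, 2.27 for IRGM, 2.18 for H2AC6, 1.93 for ANKRD6, 1.92 for H2BC5, 1.77 for SIX4 and 0.94 for FEZ1. The signalling and growth control genes gave 2.19 for PIM1, 0.62 for CDKN1A and 0.49 for FLT3, and MNDA gave -1.26.

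Among genes that fell in MOLM-14, replication and S phase genes gave -2.67 for CCNE2, -2.48 for CDC25A, -2.27 for CCNE1, -2.10 for MCM10, -2.05 for CLSPN, -1.94 for CDC6, -1.93 for UNG, -1.65 for MCM4, -1.56 for MYBL2, -1.56 for ZNF367, -1.42 for MCM7, -1.31 for TERT and -1.25 for E2F1. Other genes gave -2.24 for S100A9, -1.97 for MPO, -1.89 for AGMAT, 1.30 for CISH, 2.47 for CHAC1, 0.82 for PTP4A3 and 0.75 for HMGCS1.

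The deacetylase genes HDAC9 and HDAC4, whose changes in MOLM-14 did not pass, gave 0.84 and -0.64. IRGM was under the floor of 32 on all 6 MV4-11 arrays compared. FEZ1, TERT, HMGCS1 and HDAC4 lost the call without some single array.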

How the results depend on the processing

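No direction reversed. Of 1891 alternative values of 86 single genes and core probe sets, 1802 kept their side of the threshold, 79 no longer passed and 10 newly passed. A value that passed in neither setting was counted as kept even if its sign changed. Against DMSO, the 1007 called probe sets became 613 in the 6-array fit, 650 at an adjusted p under 0.01 and 1558 by 2-fold alone, and ran from 805 to 1253 without single arrays. Against SAHA, the 35 became 8 and 15 at floors of 1 and 64, and ran from 6 to 46 without single arrays. The 4 departures from additivity became 7 and 1 at those floors, 0 among probe sets above the median signal and 2 under quantile normalization, and ran from 0 to 17 without single arrays. At a floor of 1, 10 nucleotide, 6 interferon and 13 lysosomal genes passed. In the 6-array fit 10 ATF4, 5 interferon, 4 monocyte and 11 lysosomal genes passed, which has fewer degrees of freedom. Without both arrays that deviated most 9 interferon genes passed, and 3 to 14 did without single arrays. Other causes were not tested. The replicate numbers did not pair the arrays (correlations of deviations 0.0987, -0.0736 and 0.33, and not every array matched its own number best), and with a replicate block 964 probe sets were called against DMSO, 17 against SAHA and 1 for additivity. Signals near the floor limit what can be said of dim genes.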
